A study of Homo sapiens with 12 samples.

Results

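The 10 genes described here encode the lysosomal machinery that relays amino acid supply to the kinase complex mTORC1. They are the 4 Rag GTPases RRAGA, RRAGB, RRAGC and RRAGD, the 5 subunits of the Ragulator complex (LAMTOR1 to LAMTOR5), and folliculin (FLCN). The rule used gene names alone, and all 10 were found among the 20212 genes of the count table. PANC-1, an established human pancreatic cancer cell line, was treated with the solvent DMSO or with 50 nM rapamycin for 60 min. Each treatment had 3 biological replicates, here called cultures. Every culture gave 1 library of ribosome-protected fragments (RF), which are the stretches of mRNA that ribosomes shield from nuclease, and 1 library of total RNA, so 12 libraries were compared. The question was whether rapamycin altered how much of each mRNA was occupied by ribosomes, measured as translation efficiency (TE), the amount of RF relative to total RNA.

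Rag GTPases work as heterodimers that pair RagA or RagB with RagC or RagD. When amino acids are plentiful, dimers in their active nucleotide state bring mTORC1 to the lysosome, where the small GTPase Rheb switches the kinase on. Ragulator anchors the dimers to the lysosomal membrane, and folliculin, with a FNIP partner, acts as a GTPase-activating protein for RagC and RagD. Rapamycin, bound to FKBP12, inhibits mTORC1 itself, which lies downstream of all 10 proteins. The best known translational targets of mTORC1 are TOP mRNAs, whose transcripts begin with a C followed directly by a run of pyrimidines.

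The first 20 bases of the transcript, which lie in exon 1 and in the 5′ UTR of the coding transcripts, are shown for the Rag GTPases, for LAMTOR4, whose mRNA had the highest FPKM of the 10, and for FLCN, because the TOP motif is defined at this position. Capitals mark the longest run of pyrimidines in each sequence, and bases are counted from the annotated start of the transcript with the highest mean FPKM in total RNA. For RRAGD that transcript, RRAGD-203, has no annotated coding sequence, so the most abundant coding transcript, RRAGD-202, is shown beside it. All were read from the GENCODE transcripts of build GRCh37 and equal the genome sequence at chr9:19049425-19049444 (plus strand), chrX:55744182-55744201 (plus), chr1:39325425-39325444 (minus), chr6:90121205-90121224 (minus), chr6:90121973-90121992 (minus), chr7:99746541-99746560 (plus) and chr17:17140463-17140482 (minus), in the order listed.
RRAGA: gtaTCTCCCgagccgttgcc
RRAGB: agatgcccacgtgaTCCTgg
RRAGC: ggaCTgtggcggctgccggg
RRAGD-203: gggaggggaCCgcgggcgcg
RRAGD-202: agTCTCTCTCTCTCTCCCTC
LAMTOR4: ctgaagccggaagctaCCTa
FLCN: ggcggggCTgcgggaccgcg

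A C at the first base followed by at least 4 pyrimidines was present in 0 of the 10 genes, against 526 of 13058 tested genes with a transcript (4.03%). LAMTOR4 starts with C and has 2 pyrimidines before the first purine. A looser search, for a run of at least 5 pyrimidines that starts within the first 4 bases, found 1 of the 10 genes, RRAGA, against 13.9% of all tested genes. The coding transcript RRAGD-202, looked at after the search, carries a run of 18 pyrimidines from base 3, behind an A and a G. These matches describe annotated transcript ends, and the true start sites in PANC-1 were not measured.

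RF counts summed to between 278835 and 1574723 per library, so footprints of single genes were sparse, while total RNA counts summed to between 78081241 and 94293744. A gene without a read may still have had as many as 3, equal to 2.04 to 9.98 CPM (counts scaled to library size) of RF and to no more than 0.0388 CPM of total RNA. Such limits reflect counting alone, because reads without molecular identifiers are not independent molecules. Replicates differed far more in RF than in total RNA, with a biological coefficient of variation of 54.9% and 5.31% in edgeR. DMSO total RNA replicates 1 and 2 held reads on 16840 and 16858 genes and the other RNA libraries on 19751 to 19847. All 10 genes were well covered in every RNA library, with at least 1000 reads each. The line was checked against its markers: the keratins KRT8, KRT18 and KRT19 lay between 1326 and 1765 FPKM and the duct factor SOX9 between 19.96 and 22.5 FPKM, whereas the duct gene CFTR stayed at or below 0.122 FPKM. Acinar, endocrine, leukocyte, endothelial and fibroblast markers stayed at or below 1.53 FPKM. In such bulk libraries, fewer cells with a transcript and less of it per cell cannot be told apart.

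None of the 10 genes passed an adjusted p of 0.05 in RF, in total RNA or in TE by edgeR's quasi-likelihood test, which also called 0 of all 13329 genes tested in each of these comparisons (0.0% in either direction). All 10 passed the filter of at least 10 summed RF and 10 summed RNA counts. For TE, 5 of the 10 genes had a lower and 5 a higher estimate after rapamycin. Their median log2 fold change was 0.14, beside -0.06 over all genes tested. At an unadjusted p under 0.05, 0 of the 10 were lower, where 6.42% of all genes were, and 1 was higher (RRAGB), where 6.17% of all genes were. All rapamycin TE values lay below all DMSO values in 0 of the 10 genes (6.19% of all genes) and above them in 0 of the 10 (4.8% of all genes). RF alone gave 0 of the 10 genes at an unadjusted p under 0.05 (3.68% of all genes) and 0 without overlap between the treatments (9.45% of all genes).

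**Figure D1:**
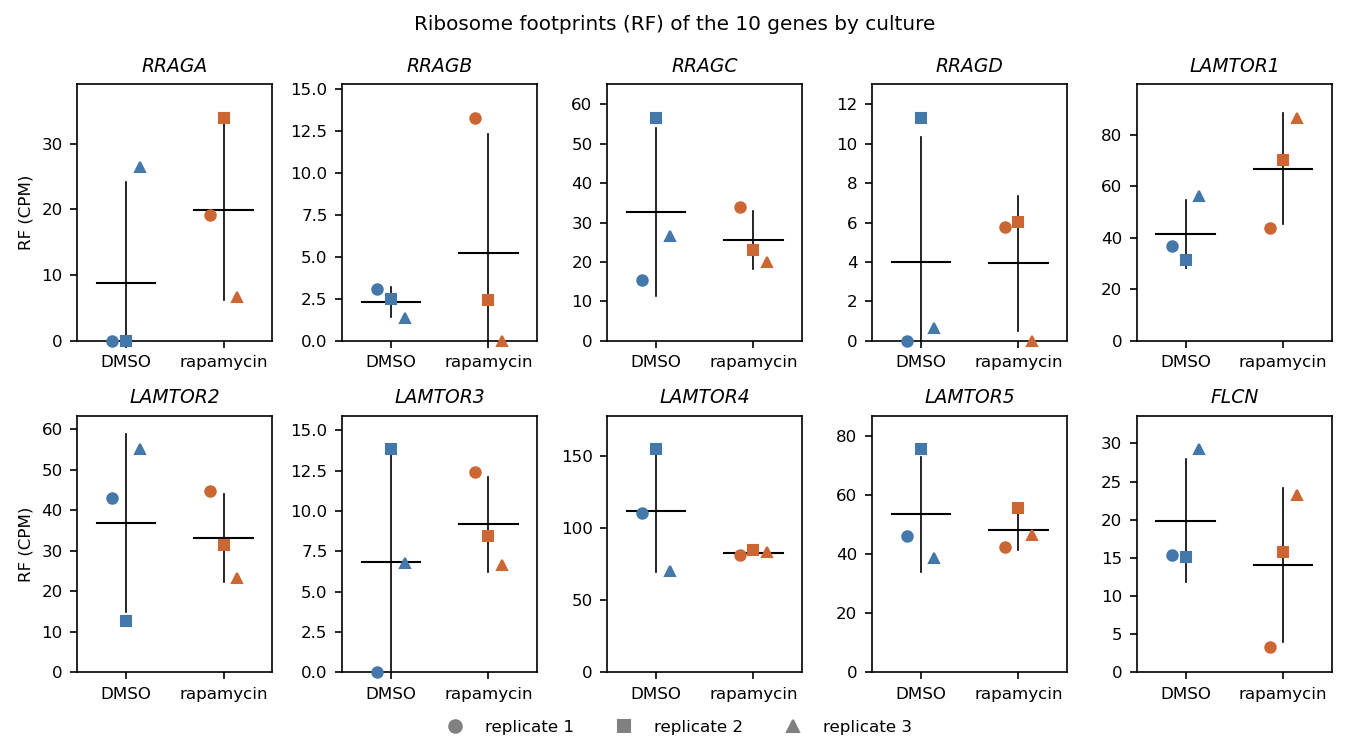
RF of each gene in CPM (linear axis from 0, a separate scale for each gene) in the 3 DMSO and 3 rapamycin cultures. Symbols are cultures, the horizontal line is the mean and the vertical line ± 1 SD, cut at 0. In all 10 genes the RF values of the treatments overlap, and RRAGA, RRAGB, RRAGD and LAMTOR3 each hold a culture with 0 reads.

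RRAGA (chr9:19049425-19051023, plus strand), which encodes RagA from 1 coding exon, had 0, 0 and 39 RF reads in DMSO replicates 1, 2 and 3. In rapamycin replicates 1, 2 and 3 it had 23, 28 and 2. The DMSO culture with reads lay inside the rapamycin range in CPM (26.5 against 6.65 to 33.9), so the treatments overlapped. The TE estimate was 0.69 ± 0.70 (log2 fold change, SE, n = 3, edgeR adjusted p = 0.730). It was 1.13 with DESeq2, 2.33 with limma's voom, 1.25 with the replicate number as a block and 2.02 with the culture as a block, and none of these passed after adjustment. All DMSO reads of RRAGA came from DMSO replicate 3. Without that culture, in RF and RNA, the TE estimate was 13.0 ± 2.84 (log2, SE, edgeR adjusted p = 0.0373), against DMSO cultures that held no read. The same fit called 331 genes lower and 65 higher, where the fit on all cultures called 0.

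RRAGB (chrX:55744182-55785207, plus strand), which encodes RagB, the close relative of RagA, had the largest TE estimate of the 10 genes. It had 1, 2 and 2 RF reads in DMSO replicates 1, 2 and 3 and 16, 2 and 0 in rapamycin replicates 1, 2 and 3. Rapamycin replicate 1 alone was high, and the other two cultures lay at the level of DMSO or at 0. The log2 fold change in TE was 2.08 ± 0.92 (SE, n = 3, edgeR unadjusted p = 0.0400, adjusted p = 0.371). Per culture, log2 TE was -2.20 ± 0.29 in DMSO and -1.82 ± 1.33 after rapamycin (SD, n = 3), closer together than the fitted change. The exact permutation test on these values gave p = 0.800 (two-sided, n = 3 against 3, smallest possible p 0.1). DESeq2's Wald test called RRAGB higher (2.09, adjusted p = 0.0460), as it did 5.06% of all genes. In RF alone the log2 fold change was 1.39 ± 1.36 (SE, n = 3, edgeR adjusted p = 0.9999). Without rapamycin replicate 1, 5 DMSO and 2 rapamycin reads were left and the gene fell under the count filter. Of the 28-base windows along the coding sequence, 0.791% of those of RRAGB and 0.768% of those of RRAGA have an exact copy elsewhere in the genome, so reads could mostly be told apart between the 2 genes.

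RRAGC (chr1:39303870-39325444, minus strand), which encodes RagC, the substrate of folliculin's GTPase-activating activity, had the most footprints of the Rag GTPases. RF counts were 5, 45 and 39 in DMSO replicates 1, 2 and 3 and 41, 19 and 6 in rapamycin replicates 1, 2 and 3. DMSO replicate 2 was the highest in CPM (56.6) and DMSO replicate 1 the lowest (15.4), with all 3 rapamycin cultures between them (19.96 to 34.0). TE had an estimate of -0.50 ± 0.42 (log2, SE, n = 3, edgeR adjusted p = 0.663), and -0.01 without DMSO replicate 2.

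RRAGD (chr6:90074335-90121992, minus strand), which encodes RagD, the alternative to RagC in the dimer, was close to the limit of detection. It had 0, 9 and 1 RF reads in DMSO replicates 1, 2 and 3 and 7, 5 and 0 in rapamycin replicates 1, 2 and 3. Its TE estimate was 0.45 ± 0.98 (log2, SE, n = 3, edgeR adjusted p = 0.883). Without DMSO replicate 2, 1 DMSO read was left against 12 after rapamycin, and the estimate was 3.28 with an edgeR adjusted p of 0.281. Without DMSO replicate 3 it was -0.64, so the direction rested on single libraries. No difference in RRAGD was detectable at this depth.

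Ragulator as a whole gave an even footprint level. Summed over its 5 subunits, RF was 237, 288 and 227 CPM in DMSO replicates 1, 2 and 3 and 225, 250 and 246 CPM in rapamycin replicates 1, 2 and 3. The means were 251 ± 32.7 and 240 ± 13.8 CPM (SD, n = 3), and the rapamycin range overlapped that of DMSO. The 4 Rag GTPases summed to 18.5, 70.4 and 55.0 CPM in DMSO and to 72.1, 65.3 and 26.6 CPM after rapamycin, where the lowest sums came from the 2 smallest RF libraries.

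LAMTOR1 (chr11:71796941-71814343, minus strand), the lipid-anchored subunit that tethers Ragulator to the lysosome, had 12, 25 and 83 RF reads in DMSO replicates 1, 2 and 3. It had 53, 58 and 26 in rapamycin replicates 1, 2 and 3. In CPM it rested at 36.9, 31.4 and 56.4 in DMSO and at 43.9, 70.2 and 86.5 after rapamycin, so 2 rapamycin cultures lay above every DMSO culture. For TE the estimate was 0.55 ± 0.39 (log2, SE, n = 3, edgeR adjusted p = 0.592), and it stayed between 0.17 and 0.91 when single cultures were left out. Exact permutation of log2 TE over the 3 against 3 cultures gave p = 0.200 (two-sided).

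LAMTOR4 (chr7:99746535-99753567, plus strand), one of the roadblock-fold subunits, had the most footprints of the 10 genes. RF counts were 36, 123 and 103 in DMSO replicates 1, 2 and 3 and 98, 70 and 25 in rapamycin replicates 1, 2 and 3. In CPM the rapamycin cultures were tightly grouped at 81.2, 84.7 and 83.2, while DMSO spread over 111, 155 and 70.0. The log2 fold change was -0.42 ± 0.35 in RF (SE, n = 3, edgeR adjusted p = 0.9999) and -0.36 ± 0.36 in TE (SE, n = 3, edgeR adjusted p = 0.726). It was 0.10 in TE without DMSO replicate 2. The exons of LAMTOR4 share 22.4% of their bases with TRAPPC14 on the opposite strand, and whether strand was used in counting is not given in the sources used here.

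LAMTOR2 pairs with LAMTOR3, and LAMTOR5 with LAMTOR4, in the roadblock-fold dimers of the scaffold. LAMTOR2 (chr1:156024573-156028297, plus strand) had 14, 10 and 81 RF reads in DMSO and 54, 26 and 7 after rapamycin in replicates 1, 2 and 3, with a TE estimate of -0.04 ± 0.42 (log2, SE, n = 3, edgeR adjusted p = 0.982). LAMTOR3 (chr4:100799493-100815585, minus strand), also known as the MAPK scaffold MP1, had 0, 11 and 10 reads in DMSO and 15, 7 and 2 after rapamycin, with 0.30 ± 0.57 (log2, SE, n = 3, edgeR adjusted p = 0.863). LAMTOR5 (chr1:110943871-110950564, minus strand) had 15, 60 and 57 reads in DMSO and 51, 46 and 14 after rapamycin, with -0.02 ± 0.39 (log2, SE, n = 3, edgeR adjusted p = 0.989). In each of the 3 genes the rapamycin CPM range lay within the DMSO range. For LAMTOR5, 17.1% of 28-base coding windows have an exact copy elsewhere and LAMTOR5-AS1 on the opposite strand covers 28.4% of its exon bases. For LAMTOR3 the share of copied windows was 4.63%.

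FLCN (chr17:17115526-17140502, minus strand) encodes folliculin, a tumour suppressor lost in Birt-Hogg-Dubé syndrome, and had the lowest TE estimate of the 10 genes. RF counts were 5, 12 and 43 in DMSO replicates 1, 2 and 3 and 4, 13 and 7 in rapamycin replicates 1, 2 and 3. In CPM these were 15.4, 15.1 and 29.2 in DMSO and 3.32, 15.7 and 23.3 after rapamycin. Rapamycin replicate 1 alone lay below the DMSO range, and the other rapamycin cultures lay within it. The log2 fold change in TE was -0.93 ± 0.61 (SE, n = 3, edgeR adjusted p = 0.564). With single cultures left out it ran from -1.33 (without DMSO replicate 2) to -0.22 (without rapamycin replicate 1). Without DMSO replicate 3, 17 DMSO and 24 rapamycin reads were left, and the estimate was -0.51. Per culture, log2 TE was -1.53 ± 0.52 in DMSO and -2.12 ± 1.12 after rapamycin (SD, n = 3, exact permutation p = 0.600). A readthrough gene on the same strand shares 27.9% of the exon bases of FLCN.

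**Figure D2:**
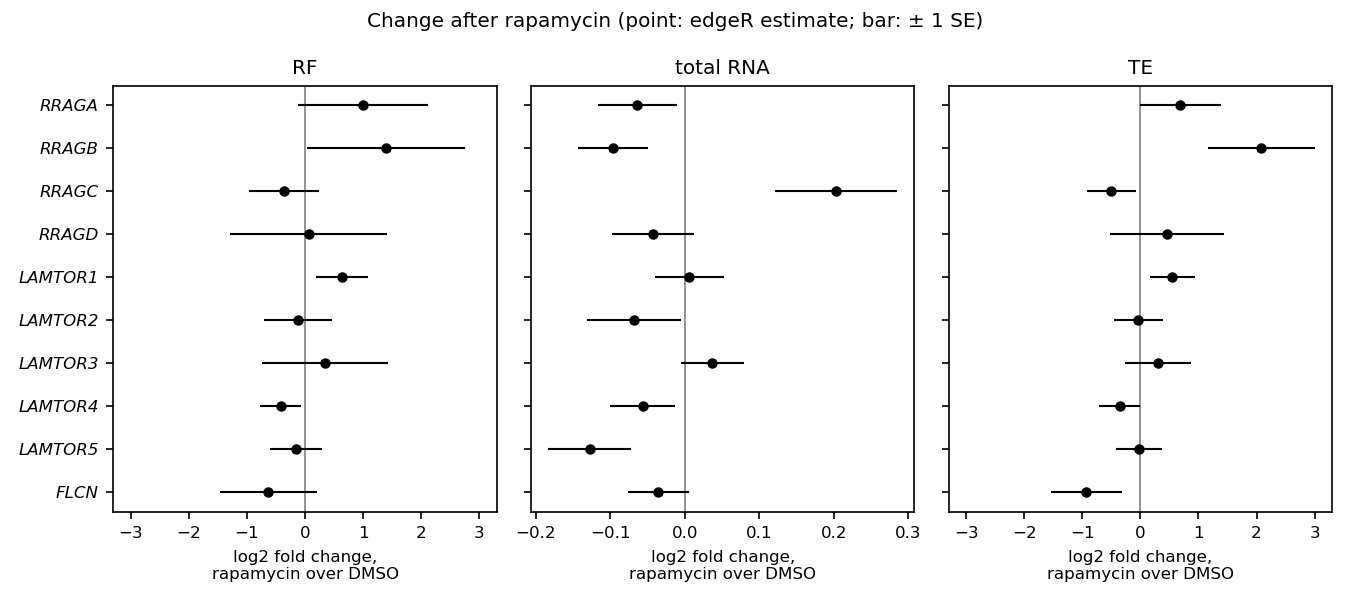
Log2 fold change (rapamycin over DMSO) of each gene in RF, total RNA and TE as fitted by edgeR over 3 cultures per treatment. Points are estimates and bars ± 1 SE, and the total RNA panel has its own, narrower axis. RRAGB (2.08) and FLCN (-0.93) lie farthest from 0 in TE, whereas all total RNA estimates lie between -0.13 and 0.20.

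Total RNA of the 10 genes was measured far more precisely, and the largest estimate was 0.20 on the log2 scale. Of the 10, 7 had lower and 3 higher estimates, with a median log2 fold change of -0.05 (0.01 over all genes tested). At an unadjusted p under 0.05, 1 of 10 was lower (LAMTOR5), where 2.51% of all genes were, and 1 of 10 was higher (RRAGC), where 3.32% of all genes were. Neither passed the adjustment.

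RRAGC mRNA was at 24.5, 25.8 and 25.8 CPM in DMSO replicates 1, 2 and 3 and at 26.6, 33.6 and 27.5 CPM in rapamycin replicates 1, 2 and 3. Every rapamycin culture was above every DMSO culture, which held for 8.22% of all genes, and RRAGC was the only one of the 10 to separate in total RNA. This gave 0.20 ± 0.08 (log2, SE, n = 3, edgeR unadjusted p = 0.0348, adjusted p = 0.766), and without rapamycin replicate 2 it was 0.09. In FPKM the groups overlapped, at 8.42 to 8.67 in DMSO and 8.53 to 11.2 after rapamycin. A long noncoding RNA on the same strand shares 44.1% of the exon bases of RRAGC.

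LAMTOR5 mRNA was at 37.7, 34.6 and 36.5 CPM in DMSO and at 35.6, 31.2 and 32.7 CPM after rapamycin in replicates 1, 2 and 3. The highest rapamycin culture lay inside the DMSO range. The estimate was -0.13 ± 0.06 (log2, SE, n = 3, edgeR unadjusted p = 0.0441, adjusted p = 0.766). RRAGB mRNA was at 22.0, 20.7 and 21.9 CPM in DMSO and at 20.8, 19.7 and 19.97 CPM after rapamycin, with -0.10 ± 0.05 (log2, SE, n = 3, edgeR adjusted p = 0.766). The other 7 genes had total RNA estimates between -0.07 (LAMTOR2) and 0.04 (LAMTOR3) on the log2 scale.

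**Figure D3:**
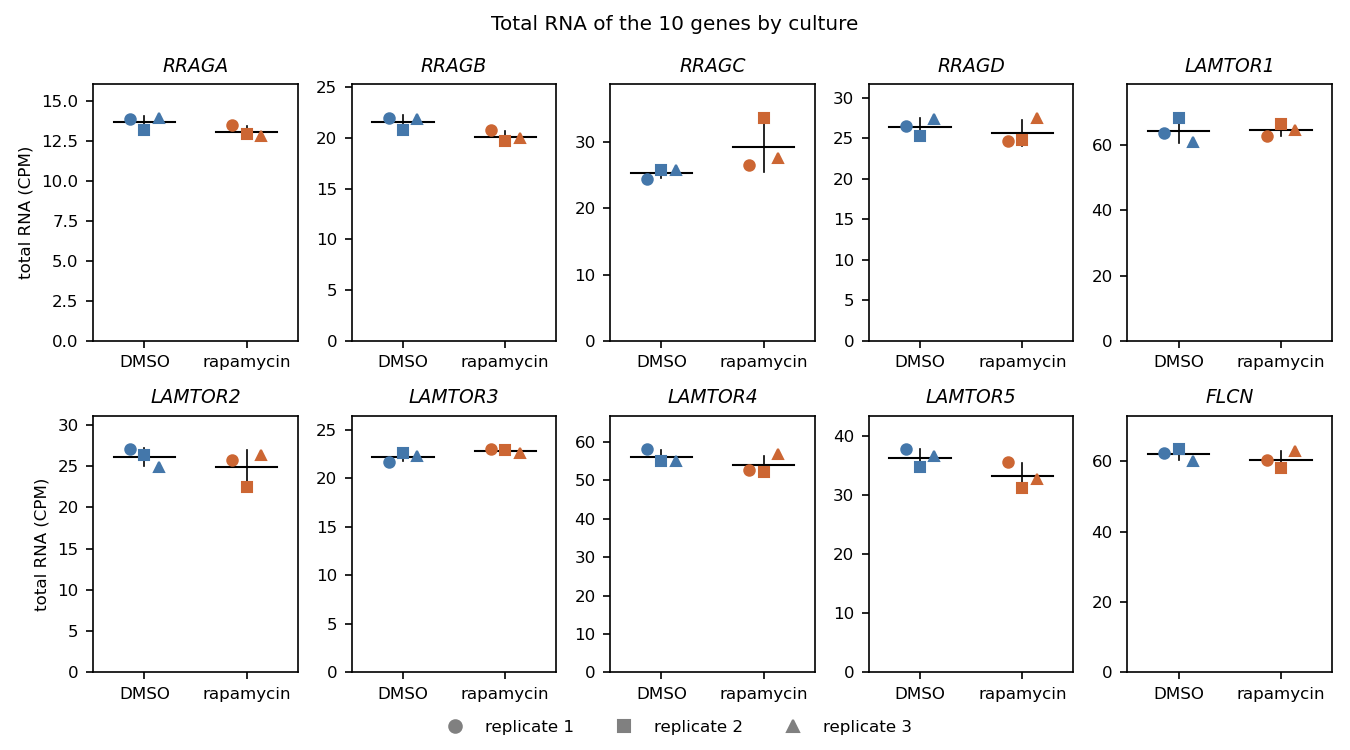
Total RNA of each gene in CPM (linear axis from 0, a separate scale for each gene) in the 3 DMSO and 3 rapamycin cultures. Symbols are cultures, the horizontal line is the mean and the vertical line ± 1 SD. RRAGC is the only gene whose rapamycin cultures (26.6 to 33.6 CPM) all lie above its DMSO cultures (24.5 to 25.8 CPM).

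Levels between genes were compared per length. In total RNA, as the authors' FPKM in DMSO (n = 3), LAMTOR4 was the highest with 92.4 ± 2.12 (SD), followed by LAMTOR5 with 55.1, LAMTOR1 with 52.4 and LAMTOR2 with 41.8 FPKM. FLCN (18.3) and LAMTOR3 (14.3) came next, and the Rag GTPases were the lowest, with RRAGB at 11.4, RRAGD at 9.39, RRAGA at 8.70 and RRAGC at 8.51 FPKM. LAMTOR3 thus stood apart from the other Ragulator subunits. Of the 9 neighbouring pairs in this order, 5 kept their direction in all 6 cultures (two-sided exact sign-flip permutation test, p = 0.03125, adjusted p = 0.0562 over the 9 pairs, the smallest this design allows before adjustment). LAMTOR5 and LAMTOR1 did not differ beyond their spread (exact adjusted p = 0.594), nor did RRAGA and RRAGC (exact adjusted p = 0.457). RRAGB against RRAGD and RRAGD against RRAGA each gave an exact adjusted p of 0.0804.

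Sorted by ribosome occupancy, the DMSO means of the 10 genes stood in another order, which the tests below did not resolve. RF density, which is RF reads per kilobase of coding sequence, scaled to library size as CPM are, was again highest for LAMTOR4 in DMSO (204 ± 77.3, SD, n = 3), followed by LAMTOR5 (96.6), LAMTOR2 (81.7) and LAMTOR1 (65.1). RRAGC came next with 27.3, ahead of LAMTOR3 (18.4), FLCN (10.5), RRAGA (9.38), RRAGD (3.32) and RRAGB (2.06 ± 0.776). LAMTOR4 exceeded LAMTOR5, and LAMTOR1 exceeded RRAGC, in 6 of 6 cultures (two-sided exact sign-flip permutation test, p = 0.03125, adjusted p = 0.141 over 9 pairs). The other 7 neighbouring pairs had exact adjusted p-values of at least 0.469. The pairs were set by sorting the same DMSO values, and none of the 9 passed after adjustment, so the order in RF was not resolved.

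RRAGC and RRAGB, at 8.51 and 11.4 FPKM, lay far apart in RF per mRNA in DMSO, a pair picked after the values were seen and not tested. The log2 ratio of RF density to FPKM in DMSO was 1.68 for RRAGC, above 90.6% of the genes ranked, and -2.47 for RRAGB, above 5.30% of them. Ranked were tested genes with an annotated coding length, an RF read in DMSO and a mean DMSO FPKM of at least 1. RRAGB rested on 5 RF reads in DMSO and RRAGC on 89. In single rapamycin cultures, with a prior count of 1, the ratio ran from -3.22 to 0.30 for RRAGB and from 0.85 to 1.78 for RRAGC. The median of the ranked genes was -0.15. LAMTOR4 (1.14), LAMTOR2 (0.97) and LAMTOR5 (0.81) lay above that median, and RRAGD (-1.50) and FLCN (-0.81) below it. Without DMSO replicate 2 the ratio was 1.05 for RRAGC, under the 1.39 of LAMTOR2, and -5.07 for RRAGD, under the -2.57 of RRAGB. All these ratios use the union of coding exons. With the coding length of single isoforms, RF density in DMSO was 375 for LAMTOR4 and 195 for LAMTOR5, but unchanged at 27.3 for RRAGC. The ratios of LAMTOR4 and LAMTOR5 rise with that length, so the place of RRAGC above them was not settled.

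**Figure D4:**
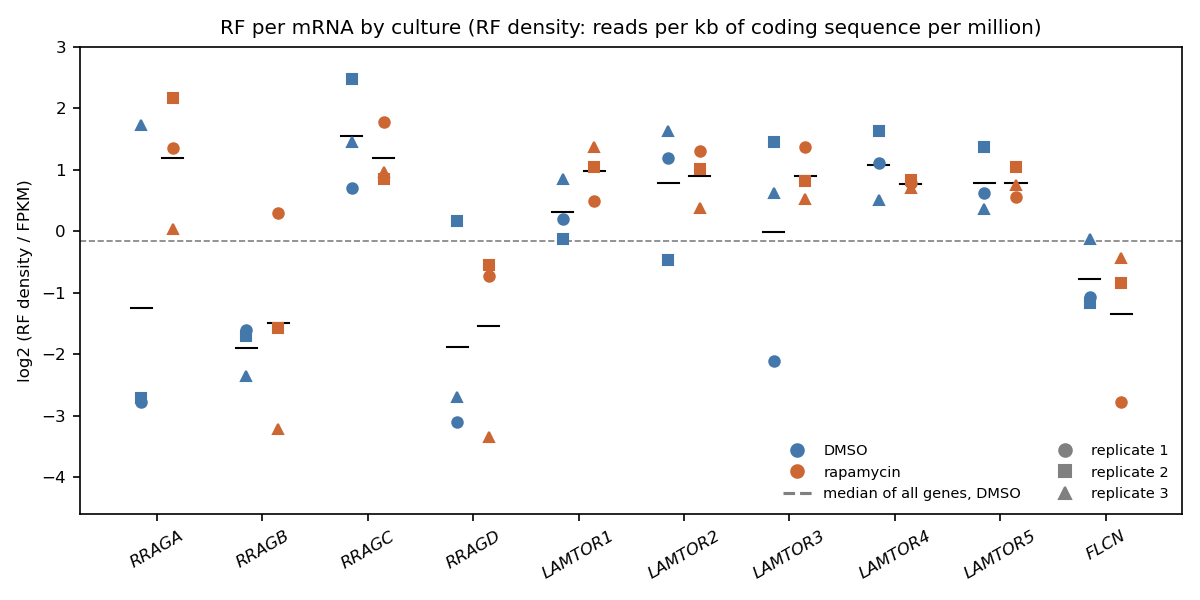
Log2 of RF density over total RNA FPKM for each gene and culture, with a prior count of 1 RF read so that cultures with 0 reads can be drawn. Symbols are cultures and short lines are means. The dashed line is the DMSO median of the genes ranked in the text, without a prior count (-0.15). All 6 cultures of RRAGC lie above 0.71, whereas RRAGB, RRAGD and RRAGA spread widely with their few reads.

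Within the RagC and RagD pair the difference in footprints was the clearest, a comparison made after the values were seen. RRAGC had 155 RF reads over the 6 cultures and RRAGD 22, for coding sequences of 1197 and 1200 bases. RF density was higher for RRAGC in 6 of 6 cultures, by 3.01 ± 1.03 on the log2 scale (SD, two-sided exact sign-flip permutation test, p = 0.03125, adjusted p = 0.0625 over 4 comparisons). Their FPKM values did not differ beyond their spread (-0.06 ± 0.20, log2, SD, 6 cultures, exact adjusted p = 0.469). In the RagA and RagB pair, FPKM was lower for RRAGA in 6 of 6 cultures, by -0.30 ± 0.06 (log2, SD, exact adjusted p = 0.0625), while RF density was higher for RRAGA in 4 of 6 (1.33 ± 2.40, log2, SD, exact adjusted p = 0.292).

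In 3 of the genes, a transcript without a coding sequence held at least 10% of the FPKM. RRAGD-203, which has no annotated coding sequence, made up 56.6% ± 4.61 of the RRAGD FPKM in DMSO and 58.7% ± 3.36 after rapamycin (SD, n = 3). The coding RRAGD-202 made up 34.1% ± 8.72 and 25.5% ± 3.53, and the shorter coding RRAGD-201 made up 9.26% ± 4.89 and 15.8% ± 3.24. Likewise LAMTOR3-203, also without a coding sequence, made up 51.2% ± 2.97 of LAMTOR3 in DMSO and 48.7% ± 4.36 after rapamycin. RRAGB had 62.3% in its main coding transcript and 10.6% in RRAGB-206, which has no annotated coding sequence. RRAGA has a single listed transcript, and RRAGC-201 held 96.6% of RRAGC in DMSO. The part of these transcripts in the RF per mRNA ratios was not tested.

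Among the other genes of lysosomal amino acid sensing, a list of 25 genes of which 24 were tested, 16 had lower and 8 higher TE estimates after rapamycin, with a median of -0.12 on the log2 scale (-0.06 over all genes tested). Of all 13329 genes tested, 7161 had lower and 6168 higher TE estimates. Of the 24, 0 passed an unadjusted p of 0.05 in TE (12.6% of all genes), in RF (3.68%) or in total RNA (5.82%). GATOR1, the complex that turns RagA and RagB off, had log2 TE estimates from -0.00 to 1.29 over 3 genes. GATOR2, which restrains GATOR1, ranged from -0.96 to 0.28 over 5 genes, and KICSTOR, which places GATOR1 on the lysosome, from -1.95 to 0.40 over 4 genes. The nutrient sensors ranged from -1.95 to 1.48 over 7 genes. The lowest KICSTOR estimate and both extremes of the sensors came from genes with at most 11 RF reads in any library. The 3 transcription factors that Rag GTPases bring to the lysosome (TFEB, TFE3 and MITF) ranged from -2.17 to -0.46. MITF had 0, 0 and 21 RF reads in DMSO and 3, 1 and 0 after rapamycin. TFEB had 4, 0 and 19 in DMSO and 10, 2 and 2 after rapamycin, and TFE3 had 8, 33 and 7 and then 7, 19 and 5. Most DMSO reads of each thus came from 1 library.

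Both partners of folliculin had lower TE estimates, as FLCN had, and neither passed the test. FNIP1 had 20, 30 and 113 RF reads in DMSO replicates 1, 2 and 3 and 76, 32 and 9 in rapamycin replicates 1, 2 and 3. Its log2 fold change in TE was -0.39 ± 0.38 (SE, n = 3, edgeR adjusted p = 0.722). FNIP2 had 2, 0 and 11 RF reads in DMSO and 1, 2 and 0 after rapamycin, with -1.98 ± 1.12 (log2, SE, n = 3, edgeR adjusted p = 0.484). In both genes DMSO replicate 3, the deepest RF library, held the most reads, and the treatments overlapped.

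**Figure D5:**
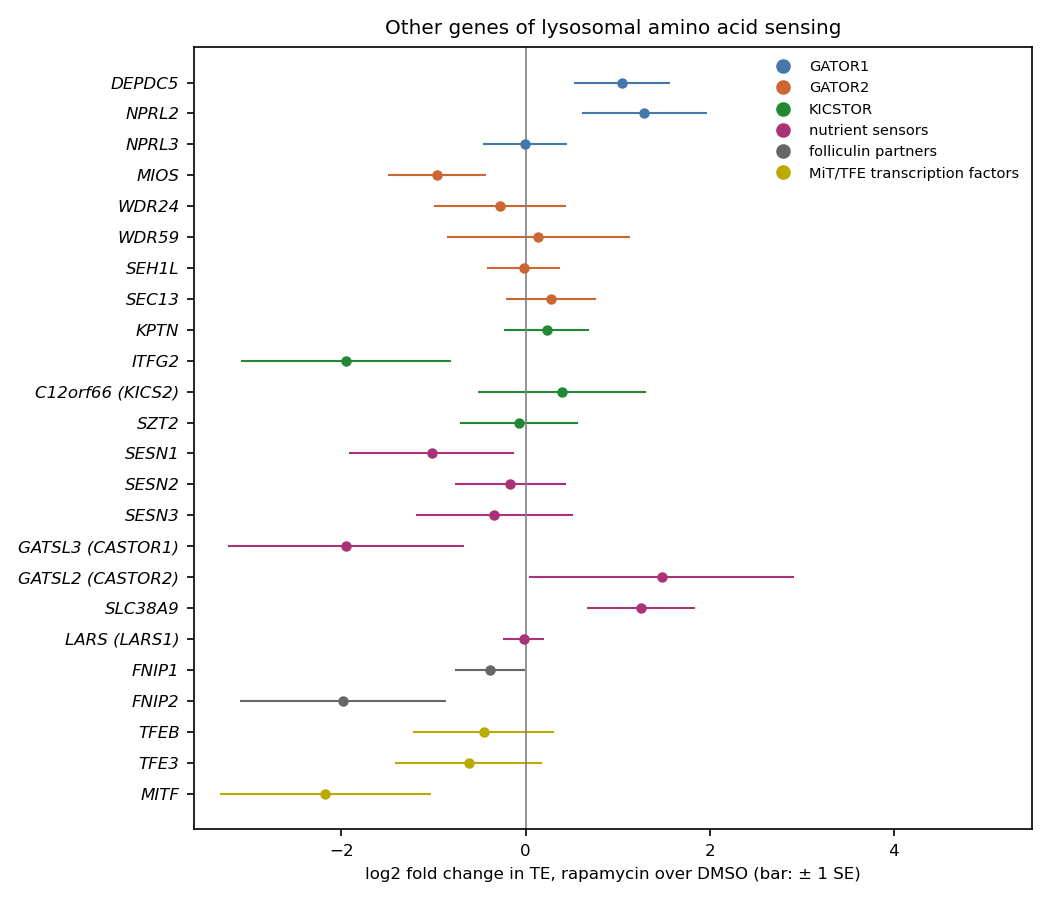
Log2 fold change in TE (rapamycin over DMSO) of the 24 tested genes of the amino acid sensing list, coloured by complex. Points are edgeR estimates over 3 cultures per treatment and bars ± 1 SE. Of the estimates, 16 lie below 0 and 8 above, and none passed an unadjusted p of 0.05.

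The 5 LAMTOR genes varied little in total RNA, with a mean log2 CPM between 5.15 and 5.26 over the 6 RNA libraries. The genes whose pattern was most like this mean, by Pearson's r over these 6 libraries among 10712 genes, were ARMC1 (0.997), GTF2IRD2B (0.989), YOD1 (0.988), TPM2 (0.987) and RASSF8 (0.987). Of the other members, FLCN had an r of 0.90 with the LAMTOR mean and RRAGC an r of -0.92. These values describe 6 libraries that share their scaling, over a pattern that spans 0.11 on the log2 scale.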

How the data were processed

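PANC-1 cultures treated with DMSO or rapamycin (3 each, from the labels) gave 6 RF and 6 total RNA libraries. The authors deposited raw counts: RF reads were quality-filtered, linker-trimmed and cleared of ribosomal RNA, and reads were aligned to GRCh37 with HISAT2 and counted on exons with featureCounts. FPKM values of total RNA per gene and isoform were deposited too, made by the authors with Cufflinks 2.2.1 and Cuffnorm. In the count table, a column headed fpkm equals the mean DMSO RNA count in all 20212 rows and was not used. The authors deposited RiboDiff's TE ratios, log2 fold changes and p-values beside the counts; these hold their own comparison and were not used.

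The fits ran in R 4.3.3 (DESeq2 1.42.0, edgeR 4.0.16, limma 3.58.1), and permutation tests and summaries in Python 3.11 (scipy 1.17.1, pandas 2.3.3). Libraries were TMM-scaled within each library type. Genes with at least 10 summed RF and 10 summed RNA counts were tested (13329). The TE test was edgeR's quasi-likelihood test for a treatment effect that differs between RF and RNA libraries (an interaction term), and p-values were Benjamini-Hochberg adjusted over all genes tested. The joint fit shares 1 spread per gene between RF and RNA libraries (coefficient of variation 24.4%), so TE standard errors can be smaller than those of RF alone. Fitted TE changes of genes with few RF reads, such as RRAGB, can also differ from those of log2 TE per culture. A prior count of 2 entered log2 TE in single cultures, and 1 entered log2 RF density. Coding lengths were the union of annotated coding exons in the GENCODE annotation of GRCh37, whose version differs from the authors'; 19545 of the 20212 genes matched by identifier. On simulated counts of 13329 genes, 200 of them changed 4-fold, the TE test recovered 22.0% when RF changed, the RF test 21.5% and the RNA test 85.0%. When RNA changed, the TE test recovered 24.5% of the 200. Unchanged genes called by the TE test numbered 30 when RF changed, 61 when RNA changed and 7 in counts with no change. In these simulations, calls at an adjusted p under 0.05 for TE thus held more unchanged genes than that level allows. No pair of replicate libraries agreed within sampling noise.

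The genes named are the 10 members, list genes with an unadjusted p under 0.05 in any fit, FNIP1 and FNIP2, and the 5 genes most like the LAMTOR mean. Overlapping genes, lineage markers and 3 transcription factors are named outside that rule, as identities or checks. Members and lists were chosen with earlier results of these data known. Alternatives were other scalings, tests, filters and blocks, leaving out each culture, FPKM in place of counts, and the coding length of single isoforms, the last of which was chosen after seeing the data for RRAGD and LAMTOR3. PECAM1, one of the lineage markers, was not matched by symbol, another is not reported here, and BMT2, a sensor, was under the count filter.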

Additional observations from a re-analysis of the deposited data

How the results depend on the processing

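RRAGB and RRAGD rested on 23 and 22 RF reads in all. Replicate RF libraries had a chi-square of 3.63 to 22.8 per degree of freedom, where sampling noise alone gives about 1. Under RLE size factors, no member moved across a threshold or turned direction. DESeq2 called 606 genes lower and 675 higher in TE and 1 member (RRAGB); in RF it called 1 lower and 4 higher, and in total RNA 4 lower and 25 higher, with 0 members lower at an unadjusted p under 0.05. The member higher in TE at that level (RRAGB) was lost (0) with TMM over all libraries (2.01, edgeR unadjusted p = 0.0506, adjusted p = 0.392), with at least 50 RF counts (not tested there), and with the replicate block (0.97) or culture block (1.29). Under voom it was lost too (1.08, limma unadjusted p = 0.297, adjusted p = 0.870), and RRAGA was at that level in its place (2.33, limma unadjusted p = 0.0484, adjusted p = 0.724). With a filter of at least 1 count, RF had 10 genes lower and 10 higher, and 2 members were lower in total RNA.

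The replicate numbers did not pair the cultures: same-numbered libraries correlated at -0.118, -0.0607 and -0.0743 in RF and at -0.107, -0.119 and -0.216 in total RNA, and no library correlated best with its own number. The replicate block called 1 gene higher in TE, and 2 lower and 4 higher in RF, with 0 members. Estimates near 0 changed sign. For TE these were LAMTOR2 (0.23 under voom, 0.085 with the replicate block, 0.092 with the culture block), LAMTOR5 (0.035 under voom, 0.0056 with at least 1 count, 0.022 with the culture block) and RRAGD (-0.19 with the replicate block). For RF they were RRAGD (-0.013, DESeq2) and LAMTOR2 (0.051, replicate block). For total RNA they were LAMTOR1 (-0.011 with at least 1 count) and, on FPKM, RRAGD (0.026 or 0.028) and LAMTOR1 (-0.0023 or -0.0024). Total RNA was also fitted on log2(FPKM + 1), log2(FPKM + 0.1) and log2(FPKM + 1) with no minimum. In that order, 2, 3 and 3 genes were lower and 2 higher each time at an adjusted p under 0.05. At an unadjusted p under 0.05, 3, 3 and 2 members were lower (RRAGB and FLCN each time, LAMTOR5 in the first 2) and 0 higher. Limma adjusted p-values of these members were 0.935, 0.930 and 0.761 in the 3 fits. The share of all genes at the unadjusted level in these fits is not given here. The causes were not tested.

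Leaving out 1 culture at a time gave 0 to 331 genes lower and 0 to 65 higher in TE (both without DMSO replicate 3), 0 to 1 members called (RRAGA), 0 to 1 members lower and 0 to 1 higher at an unadjusted p under 0.05, and a member median from -0.18 to 0.26. RF had 0 to 1 genes lower, 0 to 5 higher and 0 members at an adjusted p under 0.05. At an unadjusted p under 0.05, 0 to 1 members were higher in RF, and the member median ran from -0.17 to 0.33. Total RNA had 0 to 4 genes lower, 0 to 683 higher (without DMSO replicate 3) and 0 members at an adjusted p under 0.05. At an unadjusted p under 0.05, 0 to 2 members were lower in total RNA and 0 to 1 higher. For TE, RF and total RNA, the share of all genes at the unadjusted level in these fits is not given here. The TE range was -0.44 to 0.85 for LAMTOR2, -0.37 to 0.41 for LAMTOR5, -0.67 to 0.097 for LAMTOR4, -0.046 to 0.84 for LAMTOR3 and -0.64 to 3.28 for RRAGD. The RF range was -0.54 to 0.34 for LAMTOR2, -0.10 to 1.09 for LAMTOR3, -0.37 to 0.19 for LAMTOR5, -0.65 to 0.26 for RRAGC and -0.52 to 2.80 for RRAGD, and the total RNA range of LAMTOR1 was -0.028 to 0.053. The order by RF density moved 2 to 6 members and the order by FPKM 0. Isoform coding lengths moved 0 members in the order by RF density, and the order by RF per mRNA was not computed with them.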
